A study of Danio rerio with 4 samples.

Results

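The genes of the proteasome and its helper proteins were examined in zebrafish brain RNA. Members were all genes in the deposited table whose symbol began with psm, followed by one of the letters a to g and a number, with or without closing letters. This rule took 54 of 31030 genes. By the role of their products they comprised 15 genes of the constitutive core, 20 of the regulatory particle, 5 of the immunoproteasome and related beta subunits, 6 of activators and an inhibitor, and 7 of assembly chaperones. The remaining 1, psmc3ip, encodes a meiotic recombination factor and no proteasome subunit. The RNA came from brains of adult zebrafish at 4 mpf (months post fertilization) in 4 libraries, which were male atrn-/-, male wild type, female atrn-/- and female wild type, with 1 library each. The atrn-/- fish carried a CRISPR/Cas9 deletion in attractin (atrn), a gene for a membrane protein, and the deletion is predicted to truncate the protein. The study asked how the brain transcriptome of each sex differed between mutant and wild type. Its text gives both a single brain and 3 brains per group, and how many fish each library held was not settled here.

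The proteasome is the large protease that degrades proteins tagged with ubiquitin. Its core particle is a barrel in which outer rings of alpha subunits form the gate and inner rings of beta subunits carry the active sites. The regulatory particle sits on the end of the barrel. Its base contains ATPases that unfold the substrate, and its lid removes the ubiquitin chain. In immune cells, and in other cells after interferon, the active beta subunits psmb5, psmb6 and psmb7 are replaced by psmb8, psmb9 and psmb10. The resulting immunoproteasome produces peptides for display on MHC class I molecules. The PA28 activator, built of psme1 and psme2, is also induced by interferon in mammals. In neurons the proteasome is known for its part in synaptic protein turnover.

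Total counts lay between 8654693 (female wild type) and 16254750 (male atrn-/-), and 19943 genes averaged 10 counts or more over the libraries and were retained, among them 53 members. Levels are given as CPM, the reads of a gene relative to its library's total, after TMM scaling, whose factors lay between 0.992 and 1.01. The mutated gene, atrn, had 28.7 and 32.3 CPM in male and female atrn-/- brains, against 50.5 and 75.4 CPM in male and female wild-type brains. Its log2 fold change was -1.02 ± 0.146 (SE), with a Benjamini-Hochberg adjusted p of 0.0752 in edgeR's quasi-likelihood test. Brain markers (16 genes) summed to 26290 and 25180 CPM in atrn-/- brains, against 23800 and 25800 CPM in wild-type brains. Single brain markers differed more, with log2 ratios of atrn-/- over wild type from -0.26 to 0.85 in males and -0.74 to 0.68 in females. Both mutants were above both wild types for 6 of the 16 (gfap, s100b, fabp7a, glula, slc1a2b and plp1b), against 18.6% of all genes. They were below both for 1, syt1a, against 19.2% of all genes. Skeletal muscle markers (16 genes kept) summed to 412 CPM in male and 941 CPM in female atrn-/- brains, against 640 and 5734 CPM in the wild types, and 15 of the 16 were lower in the mutant of each sex. Red blood cell markers (5 genes) summed to 258 and 275 CPM in atrn-/- brains, against 766 and 556 CPM in wild-type brains, and 5 of 5 were lower in both mutants. Leukocyte and microglia markers (22 genes kept) summed to 509 and 561 CPM in atrn-/- brains, against 400 and 553 CPM in wild-type brains. No kept marker of these lists that defines its cell type was at 0. The part of these differences in the values below was not tested.

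All 54 symbols were matched by gene number to RefSeq (assembly GRCz12tu), where 5 carry another current symbol. Of these, psmb10 of the table is RefSeq's psmb13a and psmb11 is RefSeq's psmb12, which are beta subunits known from fish and other non-mammalian vertebrates. RefSeq's own psmb10, the beta subunit that replaces psmb7, is the row zgc:92791 of the table, which the rule did not take. Likewise psma6b of the table is RefSeq's psma6l. RefSeq's own psma6b is the row zgc:92716, also outside the rule. Its log2 ratio of atrn-/- over wild type was 0.27 in males and -0.19 in females. Outside the rule too was RefSeq's psma2b, the row si:rp71-45k5.4, with 0.022 in males and 0.37 in females. Symbols below are those of the table. Strand and the handling of reads that fit several genes are not given in the sources used here, so levels of near-identical copies such as psmc1a and psmc1b are uncertain.

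Core genes were slightly higher in atrn-/- brains of both sexes. The 15 core genes together took 0.113% of counts in male atrn-/- brain, against 0.0985% in male wild type (exact Clopper-Pearson 95% intervals 0.111 to 0.115% and 0.0970 to 0.100%). They took 0.101% in female atrn-/- brain, against 0.0872% in female wild type (0.0991 to 0.103% and 0.0852 to 0.0892%). The log2 ratio of the summed counts was 0.20 in males (95% interval 0.17 to 0.23) and 0.23 in females (0.19 to 0.27). With 1 library per group these intervals cover counting error only, and PCR copies of one molecule are not independent counts. Regulatory particle genes were also slightly higher. Their 20 genes took 0.183% of counts in male atrn-/- brain, against 0.164% in male wild type, and 0.172% in female atrn-/- brain, against 0.153% in female wild type. The log2 ratio of those sums was 0.16 in males (0.13 to 0.18) and 0.19 in females (0.16 to 0.22). Activators and chaperones differed less in sum. Activators and inhibitor had log2 ratios of 0.079 (0.0033 to 0.15) and 0.080 (-0.014 to 0.17) in males and females, and assembly chaperones 0.019 (-0.074 to 0.11) and 0.026 (-0.090 to 0.14).

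**Figure D1:**
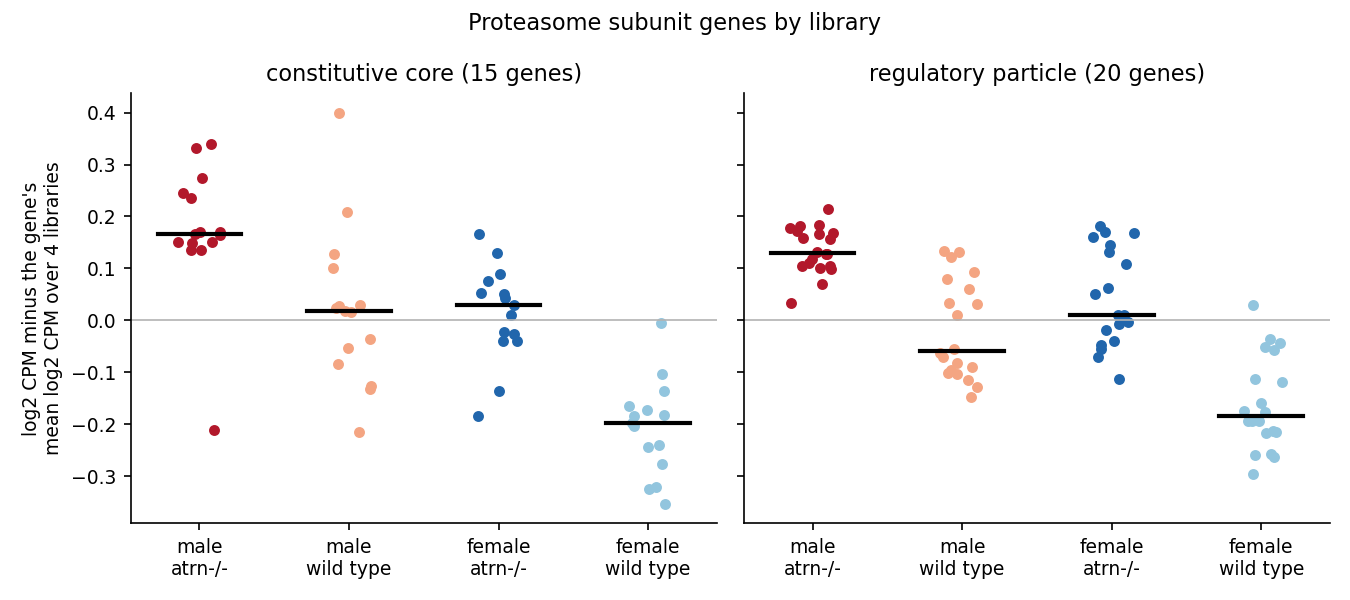
Level of each core gene (15, left) and regulatory particle gene (20, right) in the 4 libraries, as log2 CPM minus the gene's own mean log2 CPM over the 4 libraries; points are genes and black bars are medians. In each panel the median of the atrn-/- library stands above that of the wild type of its sex, and female wild type is lowest, while 1 core gene, psma6b, runs the other way.

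Gene by gene, the median log2 ratio of the core was 0.22 in males and 0.21 in females, and that of the regulatory particle was 0.18 and 0.22. Over all 19943 genes the median was -0.0070 in males and 0.0013 in females. In all, 35 of 53 members, 13 of 15 in the core and 16 of 20 in the regulatory particle, were above wild type in each sex, a pattern that 27.9% of all genes showed. Only 3 members (psma6b, psme2 and psme4a) were below wild type in each sex, against 28.5% of all genes. Both atrn-/- libraries exceeded both wild types in 23 members (18.6% of all genes), among them 7 core and 10 regulatory particle genes. Both were below both wild types in 1 member, psma6b (19.2% of all genes). The counting interval of the log2 ratio lay above 0 for 28 members in males (20.3% of all genes) and for 30 in females (18.4% of all genes). It lay below 0 for 1 member in males, psmd10 (21.3% of all genes), and for 2 in females, psme4a and psmg3 (18.4% of all genes). Members share libraries, so these counts are not independent evidence.

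No single member passed the test over both sexes. With sex as a covariate, edgeR's quasi-likelihood test called 0 of 53 members at a Benjamini-Hochberg adjusted p under 0.05, while it called 42 of all genes (0.211%). The lowest adjusted p of a member was 0.351. An unadjusted p under 0.05 was found for 9 members, each higher in atrn-/- brains, against 9.07% of all genes in either direction. DESeq2's Wald test also called 0 members. The fit left 1 residual degree of freedom per gene. The median log2 fold change of the core over both sexes was 0.22. It was 0.11 without male atrn-/-, 0.10 without female wild type, 0.26 without female atrn-/- and 0.33 without male wild type. For the regulatory particle it was 0.14, and 0.069 without male atrn-/-, 0.26 without male wild type and 0.23 without female atrn-/-. These fits on 3 libraries held no sex term, so their values mix genotype with sex. With 3 libraries, those of the mutant lay above those of the wild type in 44 members without male wild type (36.5% of all genes) and in 38 without female atrn-/- (30.8% of all genes). The number was 26 without male atrn-/- (33.3% of all genes) and 26 without female wild type (36.1% of all genes).

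**Figure D2:**
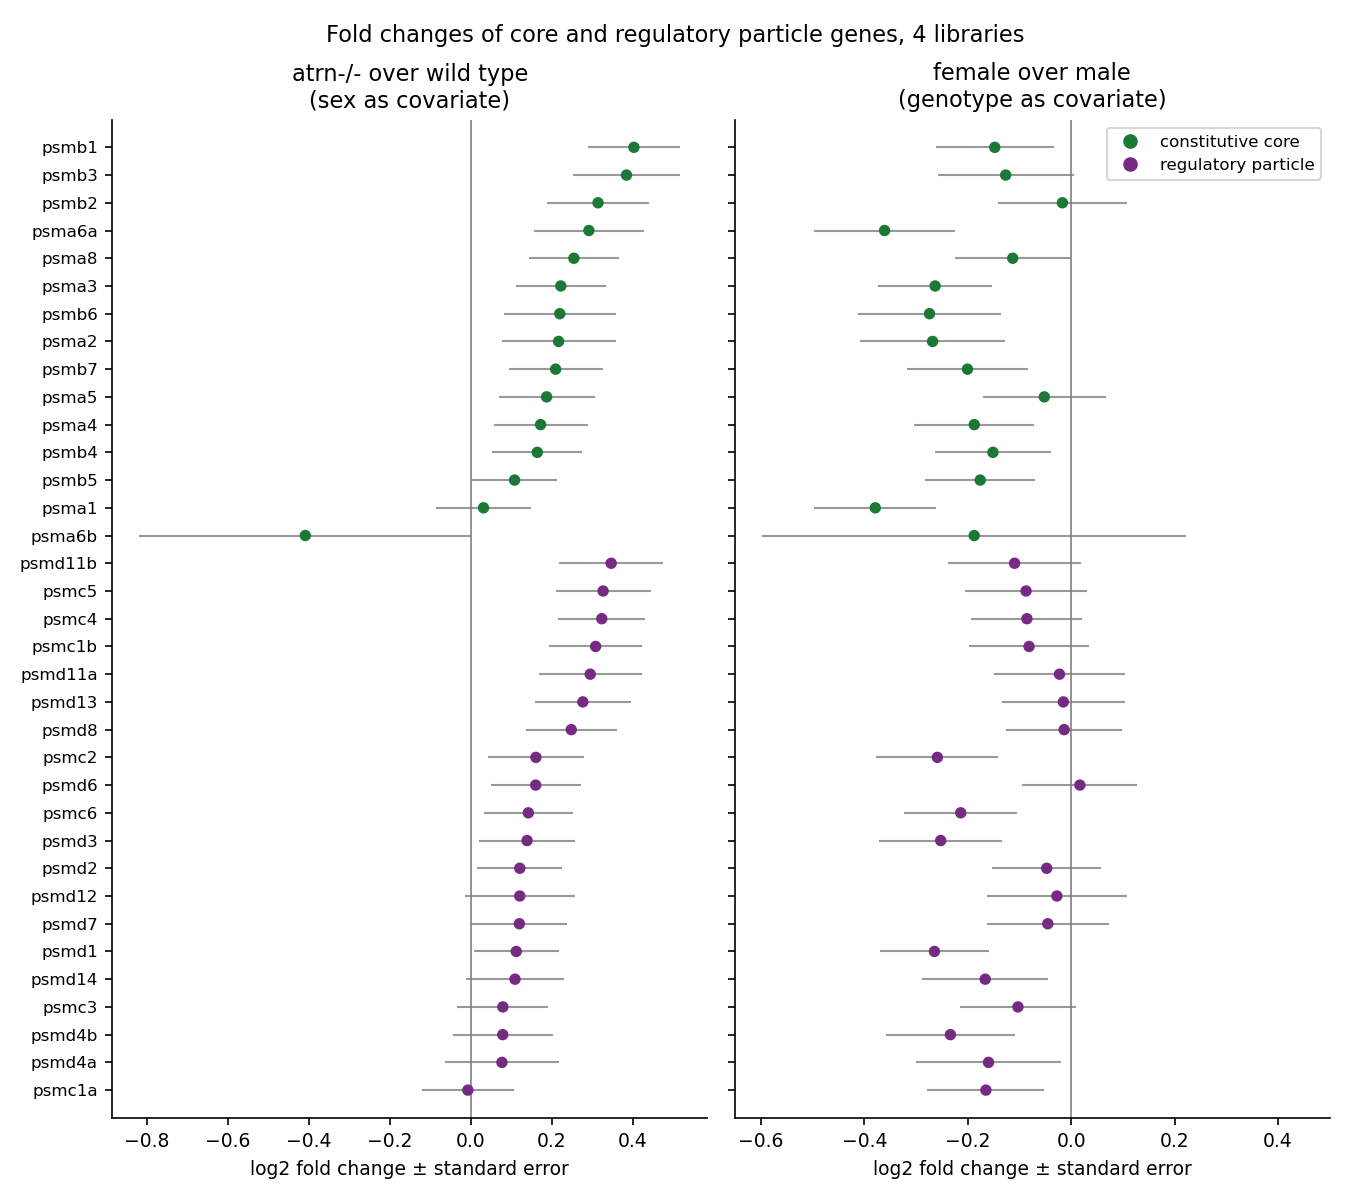
Log2 fold change of atrn-/- over wild type with sex as covariate (left) and of female over male with genotype as covariate (right) for 15 core and 20 regulatory particle genes; bars are standard errors of edgeR's fit over 4 libraries. On the left 33 of 35 points lie above 0, the exceptions being psma6b and psmc1a, and on the right 34 of 35 lie below 0, the exception being psmd6.

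Within the core, the 3 highest fold changes belonged to structural subunits of the beta ring. Of these, psmb1 had 86.3 CPM in male and 78.0 CPM in female atrn-/- brains, against 65.3 and 58.9 CPM in male and female wild-type brains. Both mutants thus lay above both wild types, with nearly the same log2 ratio in each sex (0.40 in males and 0.41 in females). The log2 fold change over both sexes was 0.40 ± 0.114 (SE), with a Benjamini-Hochberg adjusted p of 0.351 in edgeR's quasi-likelihood test. For psmb3 the levels were 90.3 and 73.5 CPM in male and female atrn-/- brains, against 61.5 and 63.6 CPM in the wild types. Its groups did not overlap, but the male log2 ratio (0.55, 95% interval 0.44 to 0.67) was larger than the female one (0.21, 0.056 to 0.36). Its fold change was 0.39 ± 0.132 (SE; edgeR's quasi-likelihood test, Benjamini-Hochberg adjusted p = 0.455). The gene psmb2 had 48.1 and 48.6 CPM in male and female atrn-/- brains, against 39.5 and 38.1 CPM in the wild types. It completed the 3 core genes with an unadjusted p under 0.05.

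The active-site subunits had smaller fold changes over both sexes than psmb1, psmb3 and psmb2, which were named as the highest. The values were 0.11 for psmb5, 0.22 for psmb6 and 0.21 for psmb7, against a core median of 0.22. In females the log2 ratio of psmb6 (0.43) was the highest of the core. The gene psmb5, for the chymotrypsin-like site, had 139 and 122 CPM in male and female atrn-/- brains, against 128 and 114 CPM in the wild types. The female mutant lay below the male wild type, so the genotypes overlapped. For psmb7, the trypsin-like site, the levels were 86.3 and 72.0 CPM in atrn-/- brains, against 71.5 and 65.01 CPM in wild-type brains, and they did not overlap. For psmb6, the caspase-like site, male brains were close (73.3 CPM in atrn-/-, against 72.1 CPM in wild type). Female brains stood apart (69.6 CPM in atrn-/-, against 51.7 CPM in wild type), since the female wild type was lower than the other libraries. The remaining psmb4 had log2 ratios of 0.12 in males and 0.21 in females.

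In the alpha ring, 6 of 8 genes were above wild type in each sex. The genotypes did not overlap in psma8, an alpha subunit known from testis in mammals, with 101 and 95.7 CPM in male and female atrn-/- brains, against 86.7 and 78.1 CPM in wild-type brains. The other gene without overlap was psma5, with 63.1 and 59.6 CPM in atrn-/- brains, against 54.2 and 53.5 CPM in wild-type brains. For psma6a the log2 ratios were 0.30 and 0.28, yet the genotypes overlapped because both females were below both males. In psma1, at the low end of the class, male atrn-/- brain had 79.6 CPM and female atrn-/- brain 64.4 CPM, against 81.8 and 59.8 CPM in male and female wild types. The sexes differed there more than the genotypes, and its fold change of 0.032 ± 0.118 (SE) turned negative without male atrn-/- (-0.14) and without female wild type (-0.18). The lowest ratios belonged to psma6b, with 35 and 29 reads in male and female atrn-/- brains, against 53 and 22 reads in the wild types. In CPM these were 2.17 and 2.21 in atrn-/- brains, against 3.31 and 2.51 in wild-type brains. Its counting intervals included 0 in both sexes (-1.27 to 0.033 in males and -1.03 to 0.69 in females).

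Among the ATPases of the base, psmc4 had 133 and 124 CPM in male and female atrn-/- brains, against 105 and 100 CPM in wild-type brains. Its log2 fold change was 0.32 ± 0.107 (SE; edgeR's quasi-likelihood test, Benjamini-Hochberg adjusted p = 0.437). The ATPase psmc5 had 97.7 and 98.5 CPM in atrn-/- brains, against 83.3 and 73.1 CPM in wild-type brains. Here too both mutants lay above both wild types, and the difference was larger in females (log2 ratio 0.43) than in males (0.23). At the other end, psmc3 had 92.5 and 88.6 CPM in male and female atrn-/- brains, against 90.0 and 81.4 CPM in the wild types, and the female mutant fell within the wild-type range.

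The copies psmc1a and psmc1b encode the same ATPase position. In psmc1b male and female atrn-/- brains had 79.3 and 76.9 CPM, against 65.6 and 60.5 CPM in wild-type brains. In psmc1a they had 92.7 and 79.7 CPM, against 89.8 and 83.1 CPM, with the genotypes overlapping. Per 100 reads of psmc1a there were 85.6 reads of psmc1b in male atrn-/- brain (79.4 to 92.3), against 73.1 in male wild type (67.5 to 79.2). In females there were 96.5 in atrn-/- brain (88.4 to 105), against 72.7 in wild type (64.9 to 81.5). The ratio within a library was therefore higher in the mutant of each sex, with counting intervals that did not overlap. Read sharing between the copies was not tested. The copies psmd11a and psmd11b, in contrast, kept ratios of 126 and 124 reads of psmd11b per 100 of psmd11a in male and female atrn-/- brains, against 127 and 114 in wild-type brains, with overlapping intervals. The copies psmd4a and psmd4b had 149 and 135 in atrn-/- brains, against 142 and 142 in wild-type brains, also with overlapping intervals. Per 100 reads of psme4a there were 284 and 249 of psme4b in atrn-/- brains, against 251 and 215 in wild-type brains. Per 100 of psma6a there were 5.34 and 7.04 of psma6b, against 10.06 and 9.69. In the mutant of each sex the psme4 ratio was thus higher and the psma6 ratio lower, with overlapping intervals.

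Of the 13 non-ATPase subunits, 10 were above wild type in each sex. The highest was psmd11b, a lid subunit, with 59.7 and 60.3 CPM in male and female atrn-/- brains, against 51.1 and 43.3 CPM in wild-type brains. The groups did not overlap, and its log2 fold change was 0.35 ± 0.129 (SE; edgeR's quasi-likelihood test, Benjamini-Hochberg adjusted p = 0.5001). The lid subunits psmd13 (65.4 and 67.3 CPM in atrn-/- brains, against 56.1 and 53.3 CPM in wild-type brains) and psmd8 (96.4 and 99.1 CPM, against 84.2 and 80.3 CPM) were also without overlap. The lid deubiquitinase psmd14 overlapped, with 56.9 and 49.4 CPM in atrn-/- brains, against 51.4 and 47.0 CPM in wild-type brains. The scaffold psmd2 had 164 and 153 CPM in atrn-/- brains, against 145 and 146 CPM in wild-type brains. The sexes did not always move alike. For psmd12, a lid subunit, males had 89.6 CPM in atrn-/- brain, against 71.7 CPM in wild type, while females had 76.5 CPM in atrn-/- brain, against 81.1 CPM in wild type. The ubiquitin receptor psmd4a had the opposite order, with log2 ratios of -0.098 in males and 0.26 in females. Over all members 15 had log2 ratios of opposite sign in the sexes. In 0 of these did both counting intervals exclude 0, and the difference between the sexes could not be tested with 1 library per group.

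Of the activators, psme1 stood out. This PA28 subunit had 185 and 137 reads in male and female atrn-/- brains, against 98 and 61 reads in wild-type brains, or 11.5 and 10.4 CPM, against 6.13 and 6.95 CPM. Both mutants were above both wild types. The log2 ratio was 0.89 in males (0.54 to 1.27) and 0.58 in females (0.14 to 1.05), and the fold change over both sexes was 0.75 ± 0.229 (SE; edgeR's quasi-likelihood test, Benjamini-Hochberg adjusted p = 0.390). Its partner psme2 did not share this difference in level. It had 10.3 and 8.69 CPM in male and female atrn-/- brains, against 11.6 and 10.02 CPM in wild-type brains, with intervals that included 0 in both sexes. Per 100 reads of psme2 there were 111 reads of psme1 in male and 120 in female atrn-/- brains, against 52.7 and 69.3 in male and female wild-type brains. The intervals of that ratio were apart in males (89.9 to 138, against 40.8 to 67.7) and overlapped narrowly in females (93.0 to 156, against 49.2 to 97.2).

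The nuclear activator psme3 had 51.4 and 48.2 CPM in male and female atrn-/- brains, against 45.5 and 42.1 CPM in wild-type brains, without overlap. The PA200 gene psme4a had 20.1 and 22.8 CPM in atrn-/- brains, against 21.2 and 27.9 CPM in wild-type brains. Its fold change of -0.18 ± 0.162 (SE) became 0.018 without female wild type. For the inhibitor psmf1, males had 32.5 CPM in atrn-/- brain, against 35.5 CPM in wild type, and females had 36.0 CPM in atrn-/- brain, against 26.2 CPM in wild type. The sexes thus ran in opposite directions, with the interval excluding 0 only in females (0.23 to 0.69).

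Assembly chaperones, which build the core (psmg1 to psmg4) and the base (psmd5, psmd9 and psmd10), had median log2 ratios of 0.0095 in males and 0.073 in females, and 2 of 7 were above wild type in each sex. The highest by the mean of both sexes were psmg2 and psmg4. For psmg2 male and female atrn-/- brains had 13.6 and 15.2 CPM, against 11.5 and 13.3 CPM in wild-type brains, with intervals that included 0. For psmg4 males had 12.2 CPM in atrn-/- brain, against 13.7 CPM in wild type, and females 15.02 CPM in atrn-/- brain, against 10.5 CPM in wild type. Its sex pattern was the reverse of that of psmg3, which had 20.5 CPM in male atrn-/- brain, against 18.9 CPM in male wild type, and 14.3 CPM in female atrn-/- brain, against 19.9 CPM in female wild type. For psmd10 males had 6.70 CPM in atrn-/- brain, against 8.82 CPM in wild type, and females 9.23 CPM in atrn-/- brain, against 8.77 CPM in wild type. The fold changes over both sexes turned sign for psmd10 (0.070 without male atrn-/-), psmg3 (0.083 without female atrn-/-) and psmg4 (-0.011 without female wild type).

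**Figure D3:**
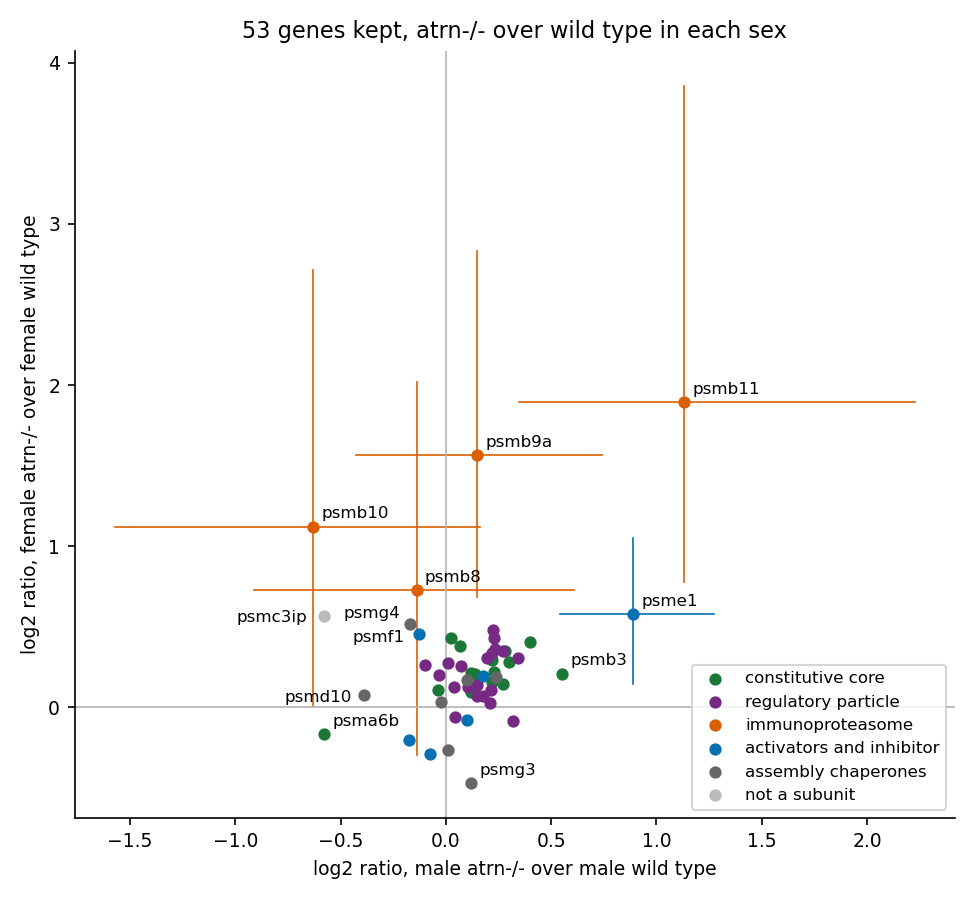
Log2 ratio of atrn-/- over wild type in males (horizontal) and females (vertical) for the 53 members kept, coloured by class; lines on the 4 immunoproteasome genes and psme1 are 95% counting intervals. Core and regulatory particle genes crowd just above and to the right of 0, psme1 and psmb11 lie far into the upper right, and psmb9a and psmb10 are high in females alone.

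The immunoproteasome genes that the rule took had few reads in these brains, and the female wild type had the fewest. Their 5 genes together had 143 and 132 reads in male and female atrn-/- brains, against 129 and 32 reads in wild-type brains. As a share of counts they made up 0.00101% in female atrn-/- brain, against 0.000370% in female wild type (95% interval 0.000253 to 0.000522%). The log2 ratio of the sums was 1.47 in females (0.90 to 2.07) and 0.14 in males (-0.22 to 0.49). Between the wild types, female over male was -1.15 (-1.75 to -0.58), and between the mutants it was 0.18 (-0.17 to 0.53). All these sums leave out zgc:92791, RefSeq's psmb10, so they describe only the genes that the rule took. That row had 199 and 116 reads in male and female atrn-/- brains, against 214 and 84 reads in wild-type brains. Its own log2 ratio was -0.12 in males and -0.11 in females. The median fold change of the 4 genes kept was 0.53 over both sexes. It was 0.054 without female wild type and 1.295 without male wild type.

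Single genes repeated this with few reads. The inducible subunit psmb9a, which replaces psmb6, had 55 reads in male and 48 in female atrn-/- brains, against 49 in male and 10 in female wild types. Its log2 ratio was 0.15 in males (-0.43 to 0.74) and 1.57 in females (0.68 to 2.83), so the groups were apart mainly through the female wild type. The inducible psmb8, which replaces psmb5, had 30 and 26 reads in male and female atrn-/- brains, against 33 and 10 reads in the wild types, with intervals that included 0 in both sexes. Its fold change of 0.27 ± 0.501 (SE) became -0.10 without female wild type. The gene psmb10 of the table had 20 and 25 reads in male and female atrn-/- brains, against 32 and 7 reads in the wild types. The genotypes overlapped, and the log2 ratio was -0.63 in males (-1.57 to 0.16) and 1.12 in females (0.0085 to 2.71). Its fold change over both sexes of 0.16 ± 0.627 (SE) became -0.22 without female atrn-/- and -0.35 without female wild type.

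Of this class, psmb11 of the table was higher in both mutants, with counting intervals above 0 in each sex. It had 36 and 33 reads in male and female atrn-/- brains, against 15 and 5 reads in wild-type brains, or 2.23 and 2.52 CPM, against 0.938 and 0.569 CPM. The log2 ratio was 1.13 in males (0.35 to 2.23) and 1.89 in females (0.78 to 3.86). Over both sexes it was 1.61 ± 0.541 (SE; edgeR's quasi-likelihood test, Benjamini-Hochberg adjusted p = 0.442), and leaving out each library in turn it lay between 1.33 and 2.04. It was the 1 member at least 2-fold higher in males (2.73% of all genes). In females 3 members, psmb9a, psmb10 and psmb11, were at least 2-fold higher (3.36% of all genes). At least 2-fold lower were 0 members in males (2.4% of all genes) and 0 in females (4.47% of all genes). The thymic-type gene psmb11b had 2 and 0 reads in male and female atrn-/- brains, against 0 and 0 reads in wild-type brains, and no fold was computed.

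**Figure D4:**
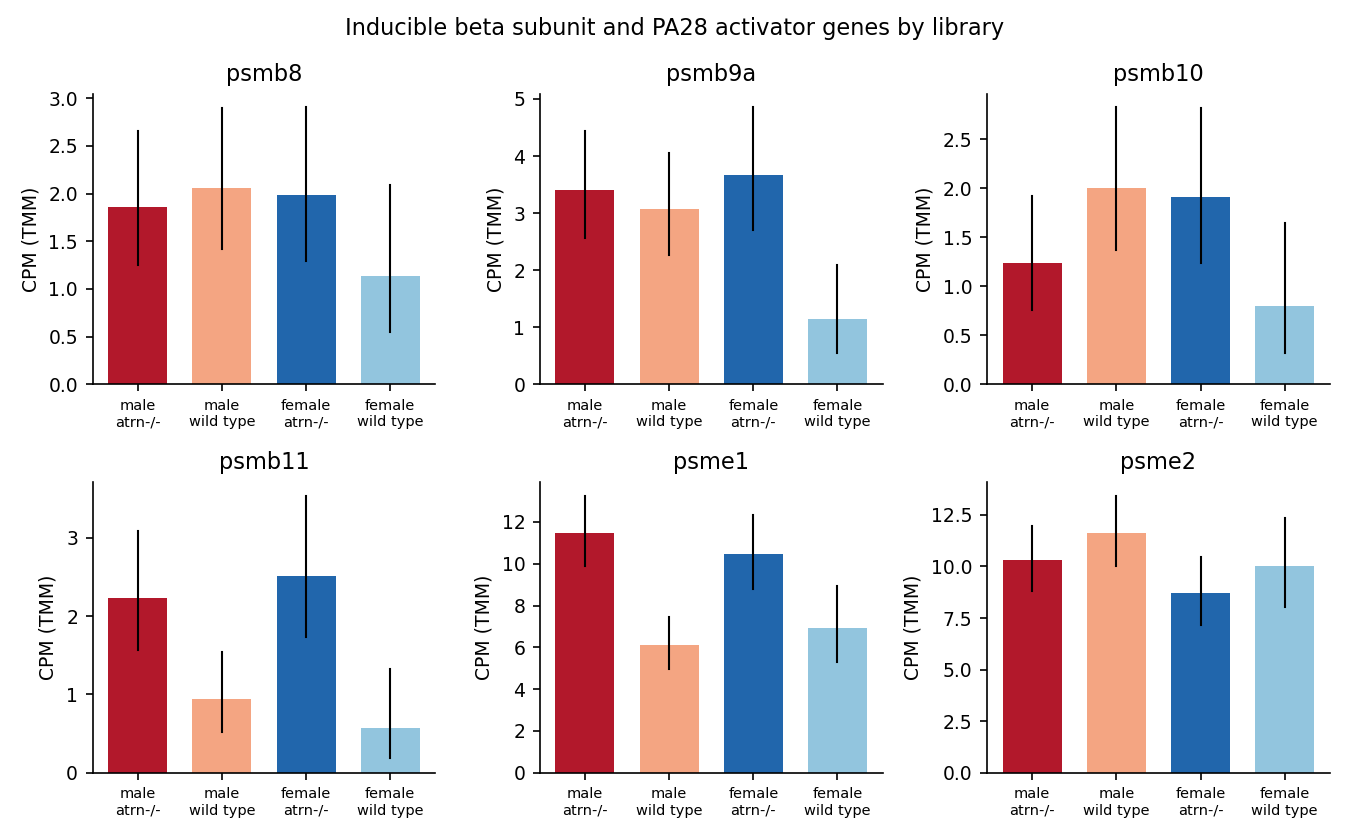
TMM-scaled CPM of psmb8, psmb9a, psmb10, psmb11, psme1 and psme2 in the 4 libraries; lines are exact 95% Poisson intervals of the counts. Both atrn-/- bars exceed both wild-type bars for psmb9a, psmb11 and psme1. Female wild type is lowest for psmb8, psmb9a, psmb10 and psmb11. The level of psme2 is lower in the mutant of each sex within overlapping intervals.

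Relative to the constitutive subunit at the same place in the ring, psmb9a had 4.65 reads per 100 of psmb6 in male atrn-/- brain and 5.26 in female atrn-/- brain, against 4.25 and 2.20 in male and female wild types. The counting intervals overlapped in males (3.48 to 6.10, against 3.13 to 5.66) and in females (3.85 to 7.04, against 1.05 to 4.09). For psmb11 the ratio to psmb6 was 3.05 and 3.62 in atrn-/- brains, against 1.301 and 1.101 in wild-type brains. This ratio was higher in the mutant of each sex, with narrowly overlapping intervals in males (2.12 to 4.24, against 0.726 to 2.15) and in females (2.48 to 5.12, against 0.356 to 2.59). For psmb8 per 100 of psmb5 it was 1.34 and 1.63 in atrn-/- brains, against 1.62 and 0.998 in wild-type brains, with overlapping intervals. The ratio of psmb10 of the table to psmb7 ran opposite ways in the sexes. It was 1.44 in male atrn-/- brain, against 2.80 in male wild type, and 2.65 in female atrn-/- brain, against 1.23 in female wild type, with overlapping intervals in each sex. The row zgc:92791, RefSeq's psmb10, had 14.3 and 12.3 reads per 100 of psmb7 in atrn-/- brains, against 18.7 and 14.7 in wild-type brains. Its own level was 12.3 and 8.85 CPM in atrn-/- brains, against 13.4 and 9.56 CPM in wild-type brains, so this inducible subunit was not higher in the mutants.

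**Figure D5:**
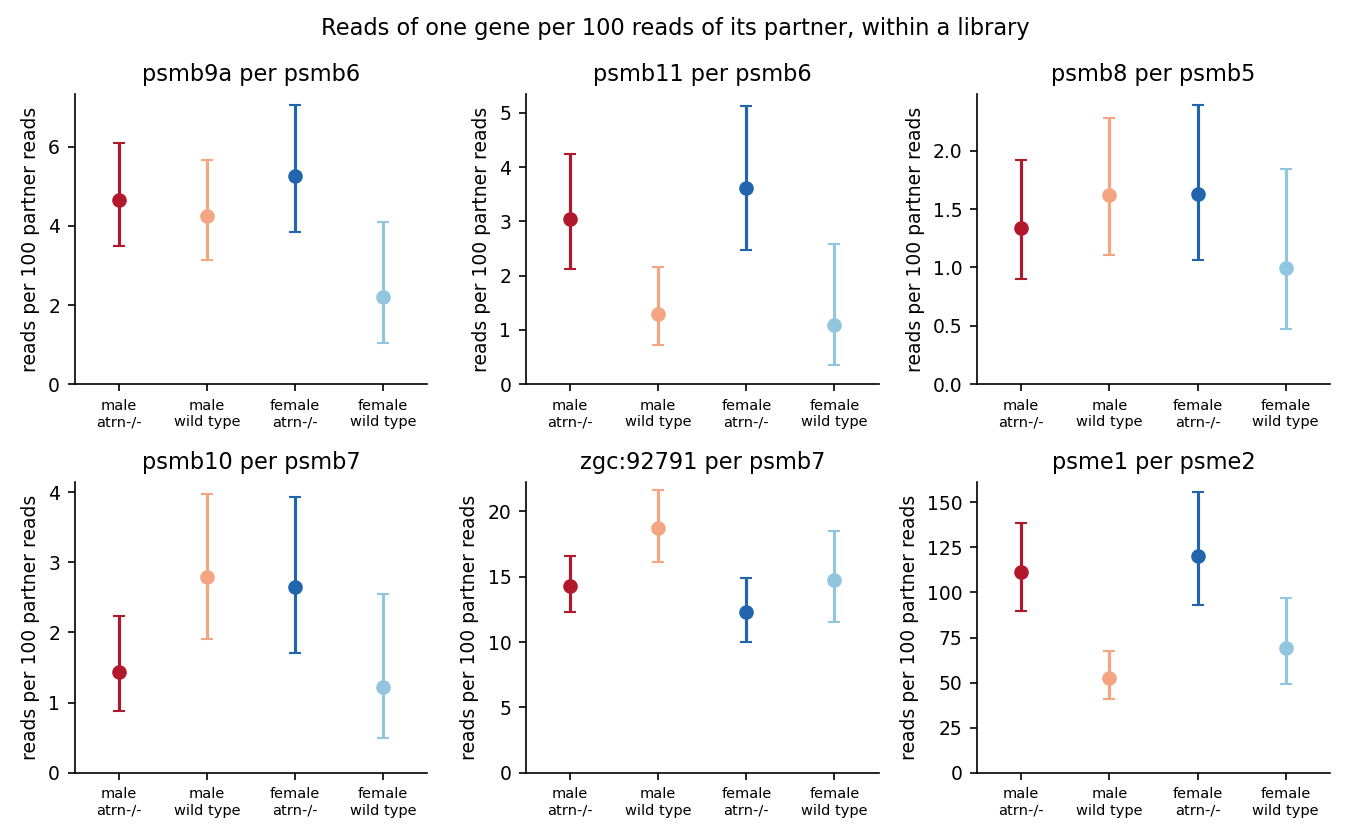
Reads of an inducible or alternative subunit per 100 reads of its partner in the same library, for 6 pairs, with exact 95% counting intervals. The ratios of psmb9a and psmb11 to psmb6 and of psme1 to psme2 are higher in the mutant of each sex. The ratio of zgc:92791 to psmb7 is lower in the mutant of each sex. Between genotypes of a sex the intervals overlap, except for psme1 to psme2 in males.

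In RefSeq's gene order psmb8, psmb10, psmb11 and psmb9a lie next to each other in the MHC class I region, and their spans overlap that of psmb8, so reads may be shared among them. The nearest gene on one side is mhc1uba, an MHC class I gene, followed by a tapbp copy (si:ch211-51f10.1), mhc1uka and tapbp, which helps load peptides onto MHC class I. On the other side lie abcb3l1, a subunit of the peptide transporter, and brd2a, a chromatin reader. The log2 ratios of these neighbours had mixed signs. For mhc1uba the log2 ratio was -0.27 in males and 0.42 in females, and for the tapbp copy it was 0.29 and -0.46. For brd2a it was -0.23 in males and -0.16 in females. The gene mhc1uka, below the count filter, had 1 and 2 reads in male and female atrn-/- brains, against 8 and 5 reads in wild-type brains. The gene tapbp had 78 and 72 reads in male and female atrn-/- brains, against 52 and 20 reads in wild-type brains. The gene abcb3l1 had 76 and 47 reads in atrn-/- brains, against 53 and 25 reads in wild-type brains. Its log2 ratio was 0.49 in males (-0.017 to 1.04) and 0.32 in females (-0.40 to 1.09), so both intervals included 0. Of these 6 neighbours, tapbp and abcb3l1 were above wild type in each sex, a pattern of 27.9% of all genes. Over the 13 antigen processing genes kept the median log2 ratio was 0.0017 in males and -0.091 in females, 0 were called, and 4 were above and 4 below wild type in each sex (27.9% and 28.5% of all genes). In females 1, tapbp, was at least 2-fold higher (log2 ratio 1.22) and 1, mhc1zba, at least 2-fold lower (3.36% and 4.47% of all genes). For mhc1zba there were 918 and 62 reads in male and female atrn-/- brains, against 1276 and 1290 reads in the wild types. Its log2 ratio was -0.49 in males and -4.91 in females (-5.35 to -4.59). The 17 interferon response genes kept had medians of 0.99 in males and 0.095 in females and sums of 215 and 142 CPM in male and female atrn-/- brains, against 133 and 152 CPM in the wild types. Here 8 were at least 2-fold higher in male atrn-/- brain (2.73% of all genes) and 0 were called (0.211% of all genes). In female atrn-/- brain 0 were at least 2-fold higher (3.36% of all genes) and 2, stat1b and dhx58, at least 2-fold lower (4.47% of all genes). With few reads, the log2 ratio of stat1b was 1.86 in males and -1.90 in females, and that of dhx58 was 1.88 and -1.03. In the male mutant, log2 ratios were 0.89 for psme1, 1.13 for psmb11, 0.15 for psmb9a and -0.14 for psmb8. Those of psmb10, psme2 and zgc:92791 were -0.63, -0.17 and -0.12. In the same order of genes, the female log2 ratios were 0.58, 1.89, 1.57, 0.73, 1.12, -0.20 and -0.11. Of the 22 leukocyte and microglia markers, the female counting interval lay below 0 for 8 and above 0 for 3, and the male one above 0 for 8 and below 0 for 1. The part of both lists in the immunoproteasome values was not tested.

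Female brains had lower levels of many members than male brains. Both female libraries were below both male libraries in 17 of 53 members (17.7% of all genes), of which 7 belonged to the core and 8 to the regulatory particle. Both were above in 1 member, psme4a (18.6% of all genes). The core sum gave a log2 ratio of female over male of -0.17 in atrn-/- brains (-0.21 to -0.14) and -0.21 in wild-type brains (-0.25 to -0.17). For the regulatory particle it was -0.10 in atrn-/- brains (-0.13 to -0.078) and -0.14 in wild-type brains (-0.17 to -0.11). The alpha ring showed it most often, with 5 of 8 genes below. For psma1 the log2 fold change of female over male was -0.38 ± 0.118 (SE; edgeR's quasi-likelihood test, Benjamini-Hochberg adjusted p = 0.584). For psma6a, female atrn-/- and wild-type brains had 31.4 and 25.8 CPM, against 40.6 and 33.0 CPM in male brains. The base scaffold psmd1 had 127 and 117 CPM in females, against 151 and 141 CPM in males. In edgeR's quasi-likelihood test 0 of 53 members were called for sex at a Benjamini-Hochberg adjusted p under 0.05, against 28 of all genes (0.14%). An unadjusted p under 0.05 was found for 4 members (psma1, psma3, psma6a and psmd1), each lower in females, against 7.57% of all genes in either direction, and DESeq2's Wald test called 0. Skeletal muscle markers were higher in both female libraries for 15 of 16 genes (941 and 5734 CPM in females, against 412 and 640 CPM in males), and leukocyte markers for 13 of 22. Their part in the lower levels was not tested.

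Other genes of the pathway came from a list of proteasome partners that held receptors, deubiquitinases, shuttles, transcription regulators and genes of other roles. Of these, 26 passed the filter. The median of their log2 ratios was 0.14 in males and 0.11 in females, and both mutants exceeded both wild types in 9 (18.6% of all genes) and were below both in 1 (19.2% of all genes). None was called (0 of 26), and 3 (ubc, akirin1 and rad23b) had an unadjusted p under 0.05 (9.07% of all genes), each with higher levels in atrn-/- brains. Polyubiquitin ubc had 1077 and 969 CPM in male and female atrn-/- brains, against 758 and 835 CPM in wild-type brains. The maturation factor pomp, which guides core assembly, had 46.1 and 43.5 CPM in atrn-/- brains, against 40.3 and 33.6 CPM in wild-type brains. For nfe2l1b, whose mammalian counterpart activates transcription of proteasome genes, the levels were 129 and 117 CPM in atrn-/- brains, against 118 and 113 CPM in wild-type brains, with overlap. Of the 26 genes, 14 were above wild type in each sex (27.9% of all genes) and 4 below (28.5% of all genes). The 4 were shfm1, zfand5b, usp14 and ube3c. For shfm1 male and female atrn-/- brains had 74.7 and 56.0 CPM, against 83.7 and 59.9 CPM in wild-type brains. Its log2 ratio was -0.16 in males (-0.28 to -0.052) and -0.097 in females (-0.26 to 0.067). That of the receptor adrm1 was 0.14 in males (-0.011 to 0.30) and 0.29 in females (0.083 to 0.50). The rule took neither gene, so the regulatory particle counts above leave both out. The meiotic gene psmc3ip had 10 and 12 reads in male and female atrn-/- brains, against 16 and 5 reads in wild-type brains, so the genotypes overlapped.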

How the data were processed

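The deposited table holds raw read counts per gene, made by the authors without normalization, for 4 brain libraries (1 per sex and genotype). The submitters' processing notes name HISAT2 and GRCz10, whereas the paper's methods describe MapSplice, RPKM and EB-Seq, which were not repeated. The counting program and its strand setting are not given in the sources used here. Libraries were grouped by their labels.

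TMM factors were computed in R 4.3.3 with edgeR 4.0.16. Genes averaging fewer than 10 counts over the libraries were left out. Within a sex, log2 ratios used a prior count of 2 and an exact Clopper-Pearson 95% interval of the share of counts, rescaled by library size, which covers counting error only. For the comparison across sexes, the quasi-likelihood test of edgeR was fitted to all 19943 genes with sex and genotype as terms, leaving 1 residual degree of freedom, with Benjamini-Hochberg adjustment and a threshold of 0.05. The fit was tested on simulated data that held no difference in genotype effect between the sexes, so such differences were not covered. With 1 library per group, that degree of freedom is the difference in genotype effect between the sexes. The test also draws on the dispersion of all genes. The p-values rest on these 4 libraries only and do not measure spread between replicates.

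Classes follow subunit role. Values in every library are given for immunoproteasome genes, psme1, psme2, members changed at least 2-fold and the 2 highest and 2 lowest members of each other class by the mean ratio of the sexes. Further members, pathway genes and MHC neighbours were chosen once their values had been seen. The lists were brain, skeletal muscle, red blood cell, leukocyte and microglia, interferon response, antigen processing and proteasome partners. Members and lists were chosen with earlier results of these data known. No lengths were at hand, so levels of different genes were not compared except as read ratios within a library.

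Scaling was also done by total counts or by size factors of DESeq2 (version 1.42.0). Other alternatives were no count filter, a higher filter (50 counts on average), a prior count of 0.5 or of 5, calls from 1.5-fold on, DESeq2's Wald test, fits with 1 term and leaving out each library. Fits on 3 libraries held 1 term only. Tables and figures were made in Python 3.11.15 (scipy 1.17.1, pandas 2.3.3, numpy 2.4.6, matplotlib 3.10.9).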

Additional observations from a re-analysis of the deposited data

How the results depend on the processing

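Members called stayed at 0 in both contrasts under every alternative run, while calls over all genes for genotype ranged from 4 (without female atrn-/-) to 294 (no filter), against 42 as reported, and were 93 with DESeq2's Wald test and 5 without sex as a term. For sex, calls over all genes were 28 as reported, 132 without a filter, 37 with DESeq2's Wald test and 1 without genotype as a term. The number of members changed at least 2-fold in males was 0 under a filter of 50 counts on average, 0 with a prior count of 5 and 3 at a threshold of 1.5-fold, and in females it was 0 under the filter of 50 counts, because the immunoproteasome genes are then filtered out. Leaving out each library in turn, the immunoproteasome median lay between 0.054 and 1.295. Members with the mutants above the wild types then numbered from 26 to 44 (30.8 to 36.5% of all genes), against 23 with all 4 libraries (18.6%). Members below numbered from 3 to 9 (32.0 to 36.9% of all genes), against 1 (19.2%). With 1 library fewer the pattern is easier to meet, so these counts cannot fall and do not test stability. Under the same omissions the fold change ranged across 0 for psma1 (-0.18 to 0.27), psmb10 (-0.35 to 0.96), psmb8 (-0.10 to 0.75), psmc1a (-0.12 to 0.10), psmd10 (-0.39 to 0.070), psme4a (-0.38 to 0.018), psmg3 (-0.44 to 0.083) and psmg4 (-0.011 to 0.37). Reversals for psma1 were -0.14 without male atrn-/- and -0.18 without female wild type. Those for psmb10 were -0.22 without female atrn-/- and -0.35 without female wild type. Those for psmc1a were 0.053 without male wild type and 0.10 without female atrn-/-. The fits on 3 libraries held no sex term and left the sexes unequal between the genotypes. These values therefore mix genotype with sex, and the part of the library left out was not tested. Of 355 alternative values for the named genes, 11 changed direction. Among the other 344, fold changes over both sexes kept their direction and side of the adjusted p threshold. The log2 ratios within a sex shifted by less than the width of their counting interval, and the 2-fold line was not checked there. With a prior count of 5, the log2 ratios of psmb11 in males (0.99) and psmb10 in females (0.96) fell below that line. The medians of the core and regulatory particle stayed above 0 without any single library (0.10 to 0.33 and 0.069 to 0.26). That of the assembly chaperones lay between -0.011 and 0.11. No paired analysis was possible because each sex and genotype has 1 library and the labels give no replicate numbers, and sex is a term of the reported fit. The comparisons by omission and by scaling of the class medians and of the members above both wild types were added after seeing the data. The main limits are 1 library per group, the low depth of the female wild type and the few reads of the immunoproteasome genes.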
